A study of Mus musculus with 11 samples.

Results

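The subject is the untreated stroke lesion of the mouse cortex as it passed from 7 d to 1 m after photothrombosis, read as the change of each gene on the infarcted side. It rests on 4 libraries, both sides of the cortex at each time, with 1 library in every group. The genes described are those with a mean of at least 5 tags per 1000000 tags (CPM) in the 2 infarcted libraries, 12997 of the 22377 in the table (58.1%). Just inside that limit was Erbb3 with a mean of 5.003 CPM, and just outside it Ecel1 with 4.996 CPM. For each of these genes the ratio of 1 m over 7 d on the infarcted side was set beside the same ratio on the non-infarcted side, which carried no infarct and serves as the reference.

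Photothrombosis closes small cortical vessels: a light-sensitive dye, rose bengal (35 mg/kg), is given to the animal, and a green lamp (565 nm, 200 mW) then lights a spot of 3.5 mm over the left parietal lobe for 30 minutes. All libraries came from male C57BL/6N mice, and the study used animals of 8-10 and of 65-85 weeks without giving the age behind each library in the sources used here. The study also placed recording electrodes on the skull and gave some mice pentylenetetrazol, a convulsant, and which libraries hold such mice is not given either. Neither the number of animals per library nor whether both sides came from the same animals is given. RNA was taken from the whole cortex of a side, so the lesion, its border and unhurt cortex are mixed in each infarcted library. The assay is CAGE (cap analysis of gene expression), which counts short tags at the capped 5′ ends of transcripts. Mice on levetiracetam (LEV), used against seizures and known to bind SV2A of synaptic vesicles, were sampled at the same times on both sides, and their infarcted pair is used only beside the untreated results. The study also holds a naive library and a later pair after drug withdrawal.

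A cortical infarct is cleared and walled off in a known order. Microglia and blood-borne macrophages take up dead cells and myelin, load their lysosomes and lipid droplets and divide, while fibroblast-like cells lay down collagen in the core. Astrocytes at the rim form a lasting border, and the inflamed tissue can later hold lymphocytes and cells that present antigen through MHC class II.

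With 1 library per group there is no replicate, no p-value is given for a single pair, and differences between animals cannot be told from differences between times. The 4 libraries held 16590924 tags (7 d infarcted), 13925503 (1 m infarcted), 17986333 (7 d non-infarcted) and 13769133 (1 m non-infarcted). Ratios carry exact 95% intervals on the tags, which cover counting error only. "Fell" and "rose" are used below of genes at least 2-fold lower or higher at 1 m, and 3 tags (0.167 to 0.218 CPM in these libraries) are the floor for a ratio. In bulk tissue, fewer cells of a type and less RNA per cell cannot be told apart. Markers of tissue outside the cortex were summed as well. The 6 choroid plexus markers summed to between 23.6 and 29.6 CPM in the 4 libraries. The 9 striatal markers summed to 620 CPM in the 7 d infarcted library and to between 845 and 968 CPM in the other 3. At 7 d the median log2 ratio of the infarcted over the other side was -0.47 for striatal markers. It was -0.41 for inhibitory and -0.37 for excitatory neuron genes. Whether the libraries differed in the tissue taken was not tested.

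From 7 d to 1 m most measured genes of phagocytes, interferon response, collagen deposition and cell division went down on the infarcted side, and few genes rose. Many stayed above the reference: at 1 m 13 of 17 phagocytic microglia genes were still at least 2-fold higher on the infarcted side. Of the 12997 genes, 357 fell (2.75%) and 42 rose (0.323%), around a median log2 ratio of 0.0083. On the non-infarcted side the balance was the other way, with 122 lower (0.939%) and 337 higher (2.59%) around a median of -0.11. Of the 357 genes that fell, 193 moved by less than 1.5-fold on the non-infarcted side, 76 fell there too and none rose there. Of the 42 that rose, 25 rose on both sides. Where the counting interval as a whole had to lie past 2-fold, 214 genes fell and 17 rose on the infarcted side.

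**Figure D1:**
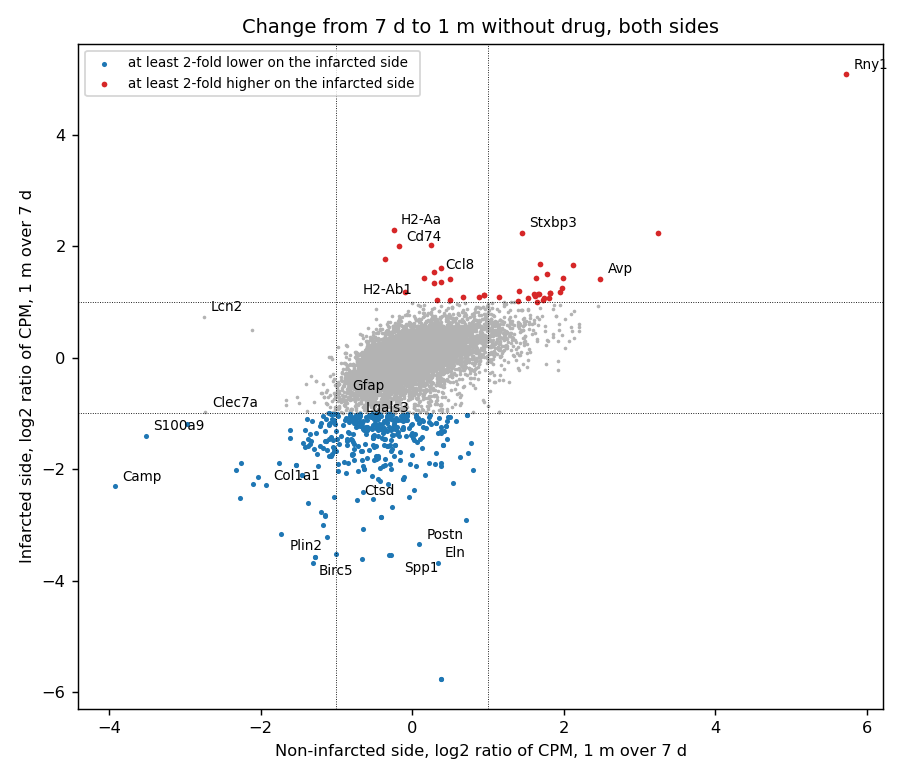
Each point is 1 of the 12997 genes, with the log2 ratio of CPM at 1 m over 7 d on the non-infarcted side across and on the infarcted side upwards, both without drug; dotted lines mark 2-fold and counts under 3 tags are set to 3. The 357 blue genes lie in a tail that reaches far below the centre on the vertical axis, while many of the 42 red genes lie to the right, where both sides rose.

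At 7 d, 660 genes (5.08%) were at least 2-fold higher on the infarcted than on the non-infarcted side, and at 1 m 307 were (2.36%). In the other direction, 2 genes were at least 2-fold lower on the infarcted side at 7 d and 60 were at 1 m. The 2 were Camp and S100a9, both neutrophil genes named after their values were seen. The expression limit is set on the infarcted pair, so genes low in both infarcted libraries are left out of these counts. Of the 660 genes in excess at 7 d, 201 (30.5%) were within 1.5-fold of the other side at 1 m or below it, 179 lay between and 280 (42.4%) were still at least 2-fold higher. The median of the difference in CPM left at 1 m was 31.8% of that at 7 d, with quartiles of 19.9% and 46.8%. The median side ratio of these genes was 3.12-fold at 7 d and 1.85-fold at 1 m. They were chosen for being high at 7 d, so some decline between the times follows from the choice. Of the 201 genes that came near the other side, 71 fell at least 2-fold on the infarcted side and 57 were less than 1.5-fold lower there or were higher.

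**Figure D2:**
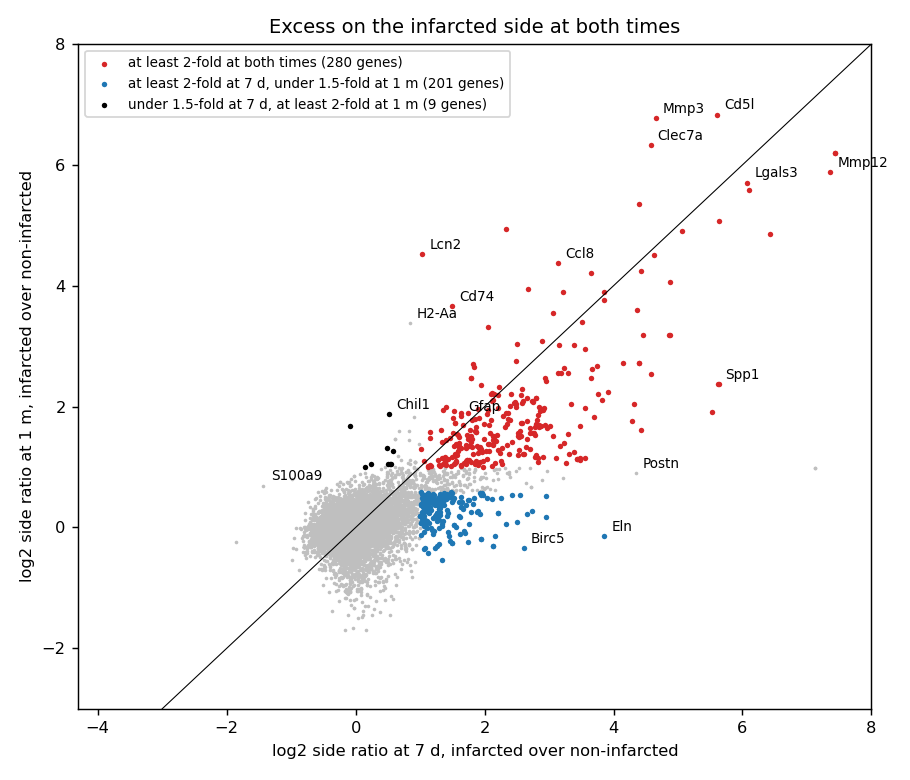
The log2 ratio of the infarcted over the non-infarcted side is plotted at 7 d (across) and at 1 m (upwards) for each gene, with counts under 3 tags set to 3 and the diagonal marking no change. Red genes (280) were in excess at both times, blue genes (201) had come within 1.5-fold by 1 m and black genes (9) were under 1.5-fold at 7 d and in excess at 1 m; Cd74, H2-Aa, Lcn2, Mmp3 and Clec7a lie above the diagonal.

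The largest and most abundant falls included genes of phagocytes. Spp1, which encodes the secreted adhesion protein osteopontin, was 303 CPM at 7 d and 26 CPM at 1 m on the infarcted side, against 6.17 and 5.01 CPM on the other. The infarcted side was thus high at both times and fell 11.7-fold (interval 10.5 to 13), while the reference stayed low. Its tags are shared with the overlapping model Gm42793, so the 2 are 1 signal. Ctsd, the lysosomal protease cathepsin D, was 1523 CPM at 7 d and 260 CPM at 1 m, against 169 and 103 CPM, and fell 5.85-fold (interval 5.65 to 6.06). Cst7, which encodes cystatin F, an inhibitor of lysosomal proteases, was 12.8 and 1.44 CPM, against 0.723 CPM and no tag. These genes lost most of their excess: 7.07% of the 7 d difference between sides was left for Spp1, 11.6% for Ctsd and 11.9% for Cst7.

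All 17 measured genes of the phagocytic microglia list were lower at 1 m on the infarcted side and 11 fell, with a median log2 ratio of -1.29 against -0.41 on the other side. The receptor Trem2, which senses lipids, fell 3.92-fold, from 115 to 29.4 CPM, against 13.8 and 10.3 CPM. Gpnmb, a glycoprotein of lipid-laden phagocytes, fell 3.04-fold, from 164 to 53.9 CPM, yet the other side also went from 3.28 to 1.60 CPM, so its side ratio was 49.9 at 7 d and 33.8 at 1 m. Lgals3, which encodes galectin-3, fell 2.10-fold, from 183 to 87.2 CPM, against 2.72 and 1.67 CPM. Lgals3 thus kept 47.4% of its 7 d difference, far more than Spp1 or Ctsd on the same list. Clec7a, the beta-glucan receptor dectin-1, was 34.4 and 17.4 CPM, against 1.45 and 0.218 CPM, the last of which is 3 tags.

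Genes of resting microglia moved the same way. All 10 measured members of the homeostatic list were lower at 1 m and 5 fell, with a median of -1.01 against -0.31 on the other side. Fcrls, a microglial Fc receptor-like protein, was 52.8 and 9.12 CPM, against 9.06 and 6.32 CPM. At 1 m the infarcted side was thus 1.44-fold above the other for Fcrls, and 1 of the 10 genes was still at least 2-fold higher. Cx3cr1, the fractalkine receptor of microglia, went from 51.7 to 21.9 CPM, against 20.6 and 13.1 CPM.

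Macrophage and surface markers had lower median ratios on the infarcted side than the microglia lists, but not beside the reference. The median log2 side ratio went from 3.23 to 2.64 for macrophage genes and from 2.75 to 1.68 for surface markers. For phagocytic microglia genes it went from 2.90 to 1.35. Of the 14 macrophage genes 7 passed the expression limit and 6 of those fell, with a median of -1.80 against -0.82 on the other side. Mmp12, the macrophage elastase, was 72.9 and 12.9 CPM on the infarcted side, whereas the other side held 0.445 CPM at 7 d and a single tag (0.0726 CPM) at 1 m. Pf4, a chemokine of platelets and border macrophages, was 34.9 and 7.40 CPM, against 4.50 and 6.54 CPM, so that its side ratio went from 7.75 to 1.13. Lyz2, the lysozyme of myeloid cells, was 755 and 384 CPM, against 22.6 and 12.8 CPM, and remained far above the reference. Arg1, arginase 1 of repair macrophages, lies below the limit, with 8.14 and 0.0718 CPM. Of 9 measured surface markers 8 fell; Cd68, a lysosomal membrane protein of phagocytes, was 139 and 42.8 CPM, against 10.3 and 9.22 CPM. Msr1, a scavenger receptor, was 10.2 and 1.36 CPM, against 0.222 and 0.363 CPM. Cd180, a B-cell and macrophage relative of the Toll-like receptors, was 10.8 and 2.66 CPM, against 0.5 and 0.872 CPM, and its side ratio changed by a log2 of -2.82 (interval -3.76 to -1.89).

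The lysosomal and lipid genes were lower by less. Of 14 lysosomal genes 13 were lower at 1 m and 6 fell, around a median of -0.96 against -0.36 on the other side. Grn, the growth factor precursor progranulin, was 202 and 57.6 CPM, against 38.9 and 30.4 CPM. The exception was Atp6v0d2, a subunit of the acid pump of osteoclasts and macrophages, which rose from 3.50 to 8.90 CPM while the other side held no tag at 7 d and 1 tag at 1 m. Plin2, the coat protein of lipid droplets, was 102 and 8.90 CPM, against 5.23 and 2.61 CPM, an 11.5-fold fall (interval 9.55 to 13.9). Of 12 measured genes of lipid droplets and cholesterol efflux 3 fell: Plin2, Abca1, the cholesterol exporter, and Apoc1, a lipoprotein component, at 11.5-fold, 2.73-fold and 2.20-fold. Angptl4, a secreted inhibitor of lipoprotein lipase, was 17.6 and 2.08 CPM, against 2.28 and 1.45 CPM. Hmox1, the haem-degrading enzyme, was 35.9 and 10.3 CPM, against 5.28 and 3.49 CPM.

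Complement genes split. The 3 chains of C1q, the starter of the classical pathway made by microglia, fell together: C1qa was 539 and 151 CPM, C1qb 538 and 181 CPM and C1qc 551 and 198 CPM, with the other side between 47.7 and 82.5 CPM. The receptors C3ar1 and C5ar1 fell 3.29-fold and 3.58-fold. C4b and Serping1, the C1 inhibitor, did not fall. C4b was 36.9 and 40.8 CPM, against 14.7 and 13.3 CPM, and Serping1 was 16.4 and 26.4 CPM, against 6.23 and 6.61 CPM. In all, 6 of 10 measured complement genes fell and 3 were higher at 1 m, and 9 of the 10 were still at least 2-fold above the other side.

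**Figure D3:**
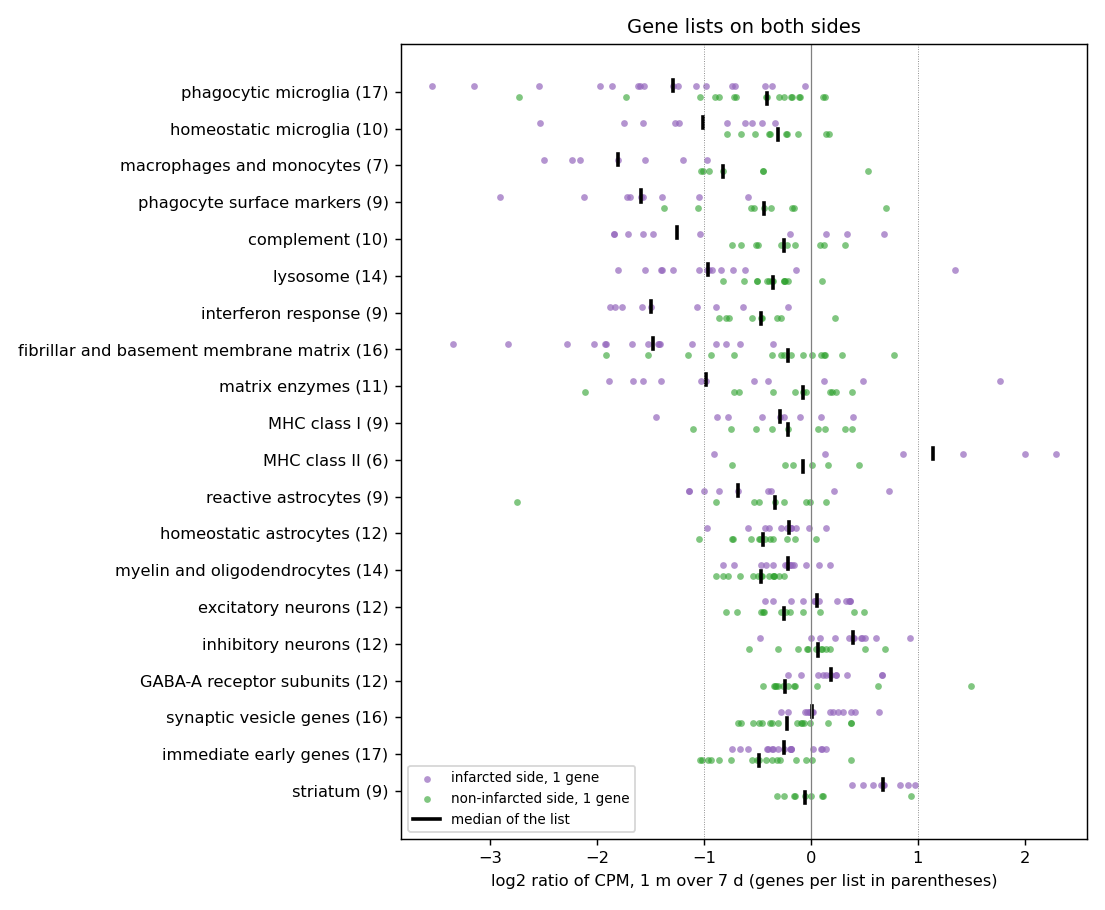
For 20 gene lists, each point is the log2 ratio of CPM at 1 m over 7 d of 1 measured gene, on the infarcted side (purple) and on the non-infarcted side (green), with black bars at the list medians; lists are described by counts and medians only. The lists of phagocytes, complement, interferon response and matrix lie to the left on the infarcted side, and MHC class II lies to the right. Neuronal lists lie near 0 or a little to the right of it.

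Interferon-stimulated genes, which are switched on by the cytokines of viral defence, were lower at 1 m in all 9 measured cases and 6 fell, around a median of -1.50 against -0.47 on the other side. Isg15, a ubiquitin-like modifier, was 41.3 and 11.6 CPM, against 12 and 7.04 CPM. Ifi27l2a was 166 and 44.9 CPM, against 22.2 and 26.1 CPM, and Irf7, a transcription factor of the response, was 21.6 and 7.25 CPM, against 4.61 and 3.70 CPM. The difference left of that at 7 d was 15.4% for Isg15, 13.1% for Ifi27l2a and 20.8% for Irf7. Bst2, the viral tether tetherin, was 31.8 and 9.34 CPM, against 6.95 and 5.01 CPM. The promoters of Isg15 and Bst2 are shown as examples of a sequence feature shared by the list. They are the 150 bases before the RefSeq start on GRCm38.p6, at chr4:156200819-156200968 (- strand) and chr8:71537473-71537622 (- strand), with matches to the interferon element GAAANNGAA in capitals; overlapping matches run together.
Isg15: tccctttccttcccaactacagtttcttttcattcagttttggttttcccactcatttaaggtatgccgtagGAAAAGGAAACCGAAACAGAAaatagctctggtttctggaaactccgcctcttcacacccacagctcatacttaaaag
Bst2: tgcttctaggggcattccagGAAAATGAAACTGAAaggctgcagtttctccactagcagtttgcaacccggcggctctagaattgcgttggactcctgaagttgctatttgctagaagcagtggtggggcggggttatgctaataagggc
Isg15 holds 3 matches and Bst2 holds 2 in these stretches. Counted on both strands in 300 bases (250 before to 50 after the start), 72.7% of the 11 interferon genes with a RefSeq promoter held this element, against 6.70% of the 9831 described genes with one. Only 75.8% of the described genes had a promoter in the table, and a match is a description of letters, not of binding.

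Of the chemokines and cytokines, 7 of 15 passed the limit, 6 of these were lower at 1 m and 1 fell. Ccl12, a ligand of the monocyte receptor CCR2, fell 3.41-fold, from 23 to 6.75 CPM, against 3.67 and 2.69 CPM. Ccl2, its close relative, was 9.40 and 5.17 CPM, against 0.723 and 1.45 CPM. Ccl6, a macrophage chemokine, was 24.2 and 35.9 CPM, against 4.28 and 4.36 CPM, the exception on the list. Outside the list, Ccl8, a chemokine that draws monocytes and T cells, rose from 30.9 to 89.0 CPM, against 3.50 and 4.28 CPM, a 2.88-fold rise (interval 2.60 to 3.20).

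The fibrous scar genes fell together. All 16 measured genes of the fibrillar and basement membrane list were lower at 1 m and 12 fell, with a median of -1.48 against -0.22 on the other side; 15 were in excess at 7 d and 5 at 1 m. Col1a1, the main chain of collagen I, was 714 and 147 CPM on the infarcted side. The other side also fell, from 68.3 to 18.0 CPM, so that the side ratio was 10.5 and then 8.15. Col3a1, of collagen III, was 222 and 31.1 CPM, against 7.56 and 3.41 CPM; it shares its tags with Gm47302. Eln, the elastin precursor, was 47.6 and 3.73 CPM, against 3.28 and 4.14 CPM, and lost its whole excess, with a change of the side ratio of -4.01 (log2, interval -4.47 to -3.55). Postn, the matrix protein periostin, was 12.4 and 1.22 CPM, against 0.612 and 0.654 CPM, of which the non-infarcted levels are 11 and 9 tags.

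Enzymes of the matrix moved in both directions. Lox, which cross-links collagen and elastin, was 18.9 and 5.10 CPM, against 0.945 and 1.23 CPM. Mmp2, a gelatinase, fell 2.98-fold from 14.3 to 4.81 CPM, against 2.39 and 1.45 CPM. The stromelysin Mmp3, by contrast, rose from 6.99 to 23.8 CPM, a 3.41-fold rise (interval 2.75 to 4.25), where the other side held 5 tags (0.278 CPM) and none. Mmp13, a collagenase, was 4.76 and 6.68 CPM, against 0.945 CPM and no tag. Of the 11 measured matrix enzymes, 5 fell and Mmp3 alone rose. The fibroblast genes fell less than their collagens: Lum, a collagen-binding proteoglycan, was 21.2 and 10.7 CPM, against 2.17 and 1.82 CPM, and 1 of 11 meningeal fibroblast genes, the growth factor gene Igf2, fell. Igf2 was 75.9 and 30.7 CPM, against 24.6 and 33.0 CPM. H19, the imprinted RNA next to Igf2, was 23.2 and 0.431 CPM (6 tags), against 3 tags and none. It shares its tags with the microRNA gene inside it, and fell 53.9-fold with a wide interval of 24.5 to 148.

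Most genes of cell division were lower at 1 m, and most of them lay below the expression limit. Only 4 of the 20 genes of replication and mitosis passed the limit. Of these, 3 were lower at 1 m, 1 was higher and 1 fell, with a median log2 ratio of -0.59 against -0.29 on the other side. Of all 20 genes, 19 were lower at 1 m. The 16 below the limit summed to 56.5 CPM at 7 d and 8.69 CPM at 1 m on the infarcted side, against 11.1 and 6.90 CPM. Birc5, survivin of the mitotic spindle, was 10.5 and 0.862 CPM, against 1.72 and 1.09 CPM. Top2a, the topoisomerase that untangles sister DNA, was 6.45 CPM and then 0.215 CPM, the latter 3 tags, a ratio of 29.9 with an interval of 9.97 to 147. Ube2c, the ubiquitin carrier of the anaphase-promoting complex, was 7.53 and 0.431 CPM, and Mki67, the proliferation marker, was 3.07 and 0.287 CPM. Top2a, Ube2c and Mki67 lie below the limit and are not among the described genes. Pcna, the sliding clamp that also serves DNA repair, was 47.9 and 50.1 CPM, against 46.6 and 49.0 CPM.

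Histone genes of the replication type, a group chosen after its values were seen, fell with them. They hold near-identical copies whose tags the counting could split, so single members are uncertain. Of 51 measured genes 27 fell and 43 were lower. At 7 d 26 were in excess on the infarcted side and at 1 m 5 were. H3c3 and the pseudogene H2ac5-ps share their tags, so 1 signal stands as 2 genes in each of these counts. The list also holds H1f10 of chromosome 6, whereas its other genes lie on chromosomes 13 and 3. H3c2, a histone H3 gene, was 72.3 and 5.67 CPM, against 6.45 and 2.61 CPM, and H2ac12, a histone H2A gene, was 43.9 and 4.74 CPM, against 4.45 and 2.03 CPM. The most abundant member, H4c4, was 1246 and 1055 CPM, against 1118 and 1061 CPM, and so changed little on either side. Promoters of 3 falling genes are shown because both groups share the CCAAT box (CCAAT) and the cell-cycle homology region (searched as TTTGAA), on either strand and in capitals below. They are the 150 bases before the RefSeq start on GRCm38.p6: Top2a at chr11:99024190-99024339 (- strand), Ube2c at chr2:164769779-164769928 (+ strand) and H3c2 at chr13:23752195-23752344 (+ strand).
Top2a: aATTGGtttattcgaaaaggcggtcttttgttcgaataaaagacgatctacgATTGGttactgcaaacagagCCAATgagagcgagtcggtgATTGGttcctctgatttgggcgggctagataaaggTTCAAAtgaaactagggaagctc
Ube2c: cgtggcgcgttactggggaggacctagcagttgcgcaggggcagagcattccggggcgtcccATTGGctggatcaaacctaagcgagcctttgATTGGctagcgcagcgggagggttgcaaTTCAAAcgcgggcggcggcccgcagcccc
H3c2: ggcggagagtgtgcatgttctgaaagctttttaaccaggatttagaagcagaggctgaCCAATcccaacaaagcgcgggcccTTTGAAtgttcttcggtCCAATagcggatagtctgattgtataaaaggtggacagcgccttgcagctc
A CCAAT box was found in 88.9% of the 18 replication and mitosis promoters and 84.8% of the 46 histone promoters of the table, against 38.4% of the described genes. The cell-cycle homology letters were found in 50% and 41.3%, against 10.7%. Over all 27025 genes of the RefSeq table the shares were 37.9% for CCAAT and 18.1% for the cell-cycle homology letters. Base composition was not matched. Median GC content was 57.7% in the replication and mitosis promoters and 44.2% in the histone promoters, against 61.7% in the described genes. CCAAT was also found in 88.9% of 9 promoters of sterol synthesis, a list with no member that fell, and the cell-cycle homology letters were found in 0% of them.

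Genes of reactive astrocytes were lower by less than those of phagocytic microglia, with a median of -0.68 against -1.29, a difference that was not tested. Gfap, the intermediate filament of astrocytes, was 615 and 384 CPM on the infarcted side, against 199 and 107 CPM. Both sides were lower at 1 m, by 1.60-fold on the infarcted side, and the side ratio was 3.10 and then 3.58. Vim, vimentin, fell 2.21-fold, from 115 to 51.9 CPM, against 27.2 and 21.6 CPM. Serpina3n, a secreted protease inhibitor of reactive astrocytes, was 24.5 and 19 CPM, against 5.89 and 4.94 CPM. Of 9 measured reactive genes 3 fell, and 7 were in excess at 7 d and 6 at 1 m, beside 15 and 13 of the 17 phagocytic microglia genes. The homeostatic astrocyte genes were lower on both sides, with medians of -0.21 and -0.45 and no fall on the infarcted side; Aqp4, the water channel of astrocyte endfeet, was 47.7 and 31.7 CPM, against 28.3 and 20.3 CPM.

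Lcn2, the iron-carrier protein lipocalin-2 of reactive astrocytes and neutrophils, was 10.0 and 16.7 CPM on the infarcted side, against 4.89 and 0.726 CPM. Its side ratio went from 2.05 to 22.9, mostly through the non-infarcted side. Neutrophil genes were high in the same 7 d non-infarcted library: S100a8 was 29.8 and 13 CPM on the infarcted side, against 58.8 and 7.48 CPM, S100a9 was 20.1 and 7.61 CPM, against 54.0 and 4.72 CPM, and Camp, a granule peptide, was 10.6 and 2.15 CPM, against 38.5 and 2.54 CPM. The 6 neutrophil genes in the table summed to 70.9, 29.7, 141 and 19.6 CPM in the 7 d and 1 m infarcted and the 7 d and 1 m non-infarcted libraries, while Elane had no tag in either infarcted library. The muscle genes Acta1 and Ckm were also highest there, at 3.22 and 3.002 CPM against at most 0.241 CPM in the other 3 libraries. The part of these cells in the change of Lcn2 was not tested.

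**Figure D4:**
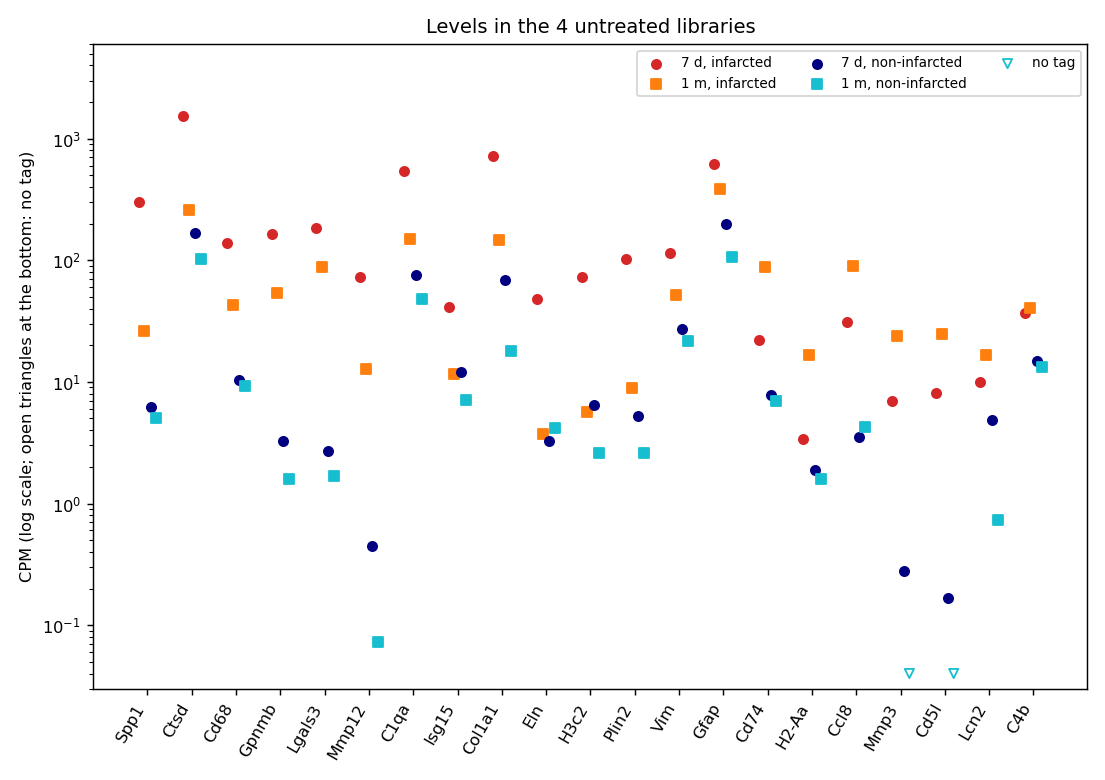
CPM on a log scale of 21 genes in the 4 untreated libraries, with circles for 7 d and squares for 1 m, red and orange for the infarcted side and dark and light blue for the other, and open triangles for no tag. From Spp1 to Gfap the orange squares lie below the red circles, and from Cd74 to C4b they lie above them.

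The clearest gain was in antigen presentation by MHC class II, the molecules with which phagocytes and other cells show peptides to CD4 T cells. Cd74, the invariant chain that guides class II molecules, was 22.1 and 88.3 CPM on the infarcted side, against 7.84 and 6.97 CPM. H2-Aa was 3.38 and 16.6 CPM, against 1.89 and 1.60 CPM, and H2-Ab1 was 24.0 and 64.6 CPM, against 5.78 and 6.46 CPM; they encode the alpha and beta chain of the class II molecule I-A. The 7 d infarcted levels lay above the reference and the 1 m levels far above it, with rises of 4.004-fold (interval 3.56 to 4.51), 4.91-fold (3.66 to 6.70) and 2.69-fold (2.39 to 3.03). The side ratio of Cd74 changed by a log2 of 2.17 (interval 1.89 to 2.45). H2-Eb1, the beta chain of I-E, was 8.98 and 16.3 CPM, against 2.34 and 3.20 CPM. In all 3 of 6 measured class II genes rose and 5 were higher, with a median of 1.14 against -0.08 on the other side. H2-DMb1, which helps load peptides, went down instead, from 23.3 to 12.4 CPM, and Ciita, the class II master regulator, stayed below the limit at 0.482 and 1.01 CPM.

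MHC class I did not share the rise. B2m, the common light chain, fell 2.73-fold, from 265 to 97.0 CPM, against 81.2 and 37.8 CPM, and H2-K1 was 144 and 154 CPM, against 39.4 and 51.3 CPM. H2-Q6, a class I-like gene with close paralogs, rose from 5.12 to 13.6 CPM, against 2.72 and 3.85 CPM. T cell genes were all below the expression limit, so none is among the 12997, but they were higher at 1 m in the infarcted library. Cd3g was 0.301 and 3.30 CPM there (5 and 46 tags), with no tag on the other side at either time, and Cd3d was 0.181 and 2.80 CPM (3 and 39 tags), against 2 and 5 tags. Both genes encode chains of the T cell receptor complex. The 7 T cell markers summed to 4.10 and 14 CPM on the infarcted side and to 3.67 and 4.28 CPM on the other, and the 6 B and plasma cell markers to 5.30 and 4.67 CPM, against 5.28 and 4.43 CPM. The part of T cells in the class II rise was not tested.

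Of the 12997 genes, 660 were in excess at 7 d, and 69 of these were in excess at both times with an infarcted level that was less than 1.5-fold lower or was higher at 1 m. The highest side ratios at 1 m among them were those of Cd5l, a secreted protein of tissue macrophages, Mmp3 and Saa3, an acute-phase protein. Cd5l rose from 8.14 to 24.8 CPM, where the other side held 3 tags at 7 d and none at 1 m. Saa3 was 11.4 and 10.5 CPM, where the other side held 2 tags and 1 tag. Wfdc17, a small inhibitor made by activated macrophages, was 141 and 126 CPM, against 4.78 and 7.55 CPM. By the choice of this set, the infarcted level of its genes at 1 m was near that at 7 d or above it, unlike that of Spp1. Sfrp4, a secreted antagonist of Wnt signals, rose from 12.4 to 27.9 CPM, against 1.95 and 1.82 CPM. Others with little fall were the class I genes H2-D1 and H2-K1, C4b, Ccl6 and Serpina3n.

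In 27 of the 12997 genes the excess reached 2-fold at 1 m and not at 7 d, and 9 of these had been under 1.5-fold at 7 d. Among the 9, Chil1, a chitinase-like protein of reactive astrocytes and macrophages, was 17.2 and 31.6 CPM, against 12.1 and 8.64 CPM, and its side ratio went from 1.43 to 3.66. Slc47a1, a transporter of organic cations, was 7.47 and 12.6 CPM, against 5.34 and 5.08 CPM. Mir9-3, a microRNA gene, was 3.62 and 14.6 CPM, against 3.84 and 4.58 CPM. In Cp, the ferroxidase ceruloplasmin, Tspan11, Ccdc190, Tpcn2 and Map3k14, the infarcted side changed less than the other: Cp was 13 and 10.1 CPM, against 8.95 and 4.87 CPM. Map3k14 shares its tags with a neighbouring model.

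Genes of the neuronal lists moved by less than 2-fold. None of the 12 excitatory, 12 inhibitory, 12 GABA-A receptor, 14 ionotropic glutamate receptor or 16 synaptic vesicle genes fell or rose on the infarcted side. Of all described genes 2.75% fell and 0.323% rose, so lists of this size would hold few. In 3 of these lists most of the shifts were upwards. Higher at 1 m were 11 of 12 inhibitory genes, 10 of 12 GABA-A receptor subunits and 13 of 14 glutamate receptor subunits. Their medians were 0.40, 0.18 and 0.23, against 0.07, -0.24 and -0.10 on the other side. The inhibitory and glutamate receptor medians passed the upper quartile of all described genes, 0.203. The excitatory list had 8 of 12 genes higher and a median of 0.06, and the synaptic vesicle list 10 of 16 and a median of 0.01, near the 0.0083 of all genes. Gad1, which makes GABA, was 149 and 206 CPM, against 195 and 221 CPM, so its side ratio went from 0.764 to 0.933. Slc17a7, the vesicular glutamate transporter of cortical neurons, was 481 and 615 CPM, against 610 and 861 CPM. Pvalb, the calcium buffer of fast-spiking interneurons, was 90.8 and 96.7 CPM, against 159 and 129 CPM. The infarcted side thus stayed below the other at both times for these 3 genes. Sv2a, the target of levetiracetam, was 107 and 132 CPM, against 148 and 140 CPM.

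Striatal markers moved in the same direction and further. All 9 were higher at 1 m on the infarcted side, with a median of 0.68 against -0.06 on the other, though none by 2-fold. Ppp1r1b, the dopamine-regulated phosphatase inhibitor of striatal neurons, was 259 and 417 CPM, against 342 and 369 CPM, and Adora2a, an adenosine receptor of striatal neurons, was 9.40 and 18.5 CPM, against 13 CPM at both times. Tac1, on the inhibitory list and also abundant in striatum, was 14.8 and 28.1 CPM, against 23.6 and 25.4 CPM. The part of striatal tissue in the neuronal shifts was not tested. Myelin genes were a little lower on both sides, with medians of -0.21 and -0.46; Mbp, myelin basic protein, was 2300 and 2008 CPM, against 2032 and 1476 CPM.

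Some changes were shared by both sides, among them falls of lesion genes: Gpnmb and Cst7 of phagocytic microglia, Col1a1, Col1a2 and Col3a1 of the matrix list and Ms4a7 and Mmp12 of macrophages fell on both. The 6 named models that fell most on both sides, by the smaller of both ratios, were Col1a1, Col1a2, Cst7, Adam8, Tlr13 and Camp. Col1a2, the second chain of collagen I, was 79.02 and 20.9 CPM, against 14.5 and 5.01 CPM. The 6 named models that rose most on both sides, by the smaller of both ratios, were Rny1, Stxbp3, Syndig1l, Avp, Cacna1d and Efcab10. Rny1, a small cytoplasmic RNA of the Ro particle, was 0.723 and 24.5 CPM on the infarcted side, against 0.445 and 23.6 CPM, and was 0.174 and 0.521 CPM in the infarcted pair with LEV. Stxbp3, a syntaxin-binding protein of vesicle fusion, was 4.70 and 22.3 CPM, against 6.73 and 18.3 CPM, and 6.66 and 22.0 CPM with LEV. Cacna1d, an L-type calcium channel, was 14.5 and 39.3 CPM, against 16.3 and 65.0 CPM. Time and the handling of libraries cannot be told apart in these values. Immediate early genes were lower on both sides, more so on the reference: Arc was 117 and 73.7 CPM, against 196 and 96.6 CPM. The p53 target Cdkn1a, a cell-cycle inhibitor also induced by glucocorticoids, was 20.4 and 10.1 CPM, against 20.6 and 10.0 CPM, and so changed alike on both sides.

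The reference moved by itself too, which bears on every change of a side ratio. The side ratio fell at least 2-fold in 334 of 12983 genes (2.57%) and rose in 28 (0.216%), with 14 genes left out for under 3 tags in a library. Of the 334, 150 also fell on the infarcted side, whereas 112 did not and instead rose in the non-infarcted library. The 6 lowest changes of the side ratio among named models were those of Eln, Msr1, Postn, Spp1, Birc5 and Cd180, which all fell on the infarcted side. The ratio on the infarcted side is a part of the change of the side ratio, so this follows in part from how that change is built.

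In the infarcted pair with LEV most of the losses and fewer of the gains reached 2-fold as well. Its labels place the drug at 7 d and 1 m, whereas the study's design text starts the drug 1 month after the stroke; the labels were followed. In this pair 656 genes fell (5.05%) and 145 rose (1.12%). Of the 357 genes that fell without LEV, 295 also fell with it, 82.6% of the first list and 45.0% of the second, and 355 were lower by any amount. Of the 42 that rose without LEV, 17 rose with it (40.5% and 11.7%), 33 were higher by any amount and 7 fell at least 2-fold. Spp1 was 456 and 17.7 CPM with LEV, Eln 60.3 and 2.97 CPM and Birc5 8.69 and 0.989 CPM. Collagens reached lower levels than without LEV: Col1a1 was 847 and 20.9 CPM and Col3a1 239 and 3.38 CPM.

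The 7 genes that rose without LEV and fell with it were Cd74, H2-Ab1, Ccl8, Cd5l, Mmp3, Atp6v0d2 and Sfrp4, all described above. Cd74 was 25.6 and 11.9 CPM on the infarcted side with LEV, Mmp3 was 14.1 and 0.729 CPM and Cd5l was 5.74 and 0.312 CPM. At 1 m each of them was higher in the infarcted library without LEV than in the one with it. Of the MHC class II list, all 6 measured genes were lower at 1 m in the infarcted pair with LEV and 4 fell, with a median log2 ratio of -1.24. The summed T cell markers were 8.58 and 3.80 CPM with LEV, and so were low at 1 m as well. With 1 library in each group, the drug and the difference between single animals or pools cannot be told apart.

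**Figure D5:**
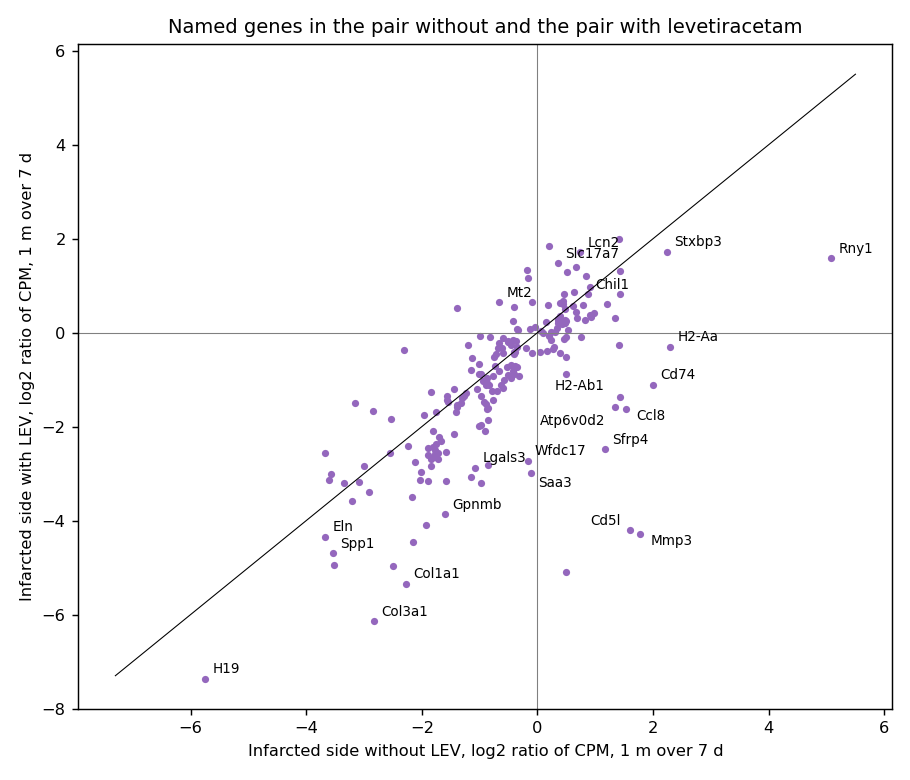
Named genes of the expression limit by their log2 ratio of CPM at 1 m over 7 d on the infarcted side, without LEV (across) and with LEV (upwards); the diagonal marks equal change. Most falling genes lie near the diagonal at the lower left, while Cd74, H2-Ab1, Ccl8, Atp6v0d2, Sfrp4, Cd5l and Mmp3 lie at the lower right.

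When both infarcted pairs were fitted together, with LEV as a factor, limma on log2(CPM + 1) called 1565 of 12991 genes lower at 1 m (12%) and 880 higher (6.77%) at a Benjamini-Hochberg adjusted p under 0.05. This fit has 1 residual degree of freedom and borrows its spread from other genes, so a call does not show that both pairs agree; with TMM factors 1595 genes were called in place of 2445. All 16 tested matrix genes, 16 of 17 phagocytic microglia genes and 9 of 10 interferon genes tested were called lower, and 6 of 10 complement genes. Of the neuronal lists, 7 of 12 inhibitory genes were called higher, as were 8 of 9 striatal markers. Chil1 was called higher, at 15.3 and 26.9 CPM with LEV, and so was Lcn2, at 6.90 and 22.5 CPM. Of the genes whose pairs went opposite ways, limma called Cd74 higher (log2 0.45, adjusted p = 0.0303) and Mmp3 and Sfrp4 lower (log2 -0.75 and -0.51, adjusted p = 0.0041 and 0.0474). Ccl8, H2-Ab1 and Cd5l were not called by limma (adjusted p = 0.962, 0.866 and 0.176), and Atp6v0d2 was not among the genes tested.

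Mmp12 fell and Mmp3 rose, and their promoters are given with the letters searched. They are 150 bases before the RefSeq start on GRCm38.p6, Mmp12 at chr9:7344247-7344396 (+ strand) with the PU.1 element (searched as GAGGAAGT) in capitals, and Mmp3 at chr9:7445672-7445821 (+ strand) with the AP-1 site (searched as TGANTCA) in capitals.
Mmp12: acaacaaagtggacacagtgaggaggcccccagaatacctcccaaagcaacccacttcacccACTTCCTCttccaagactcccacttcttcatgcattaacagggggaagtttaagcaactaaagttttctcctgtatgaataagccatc
Mmp3: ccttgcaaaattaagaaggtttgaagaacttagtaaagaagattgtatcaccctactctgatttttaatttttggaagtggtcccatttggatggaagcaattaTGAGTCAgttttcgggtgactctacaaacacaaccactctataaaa
The PU.1 letters were found in 9.13% of the 241 promoters of genes that fell on the infarcted side and in 2.77% of all described genes, and the AP-1 letters in 12% and 4.33%. Genes that fell on the non-infarcted side had like shares, 8.54% and 14.6% of 82 promoters, so these shares were not particular to the infarcted side. Of the 122 genes that fell there, 76 fell on both sides. Of the 23 promoters of genes that rose, 0% held the PU.1 letters and 8.70% the AP-1 letters, and over all 27025 genes of the RefSeq table the shares were 3.28% and 7.93%. Base composition was not matched between these sets, with a median GC content of 54.3% in the promoters of genes that fell, 61.7% in those of all described genes and 52.7% in the RefSeq table. No check on GC content was made, and only 67.5% of the genes that fell had a promoter in the table.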

How the data were processed

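CAGE tags were counted per gene in 11 libraries of mouse cortex, 1 per group. The deposited values are CPM, made by the authors as tags per gene over the library total; the submitters' processing notes list the build GRCm38 and the tools HISAT2 (2.0.5), BWA (0.7.17) and DESeq2 (1.20.0), with their roles not given in the sources used here. Dividing each CPM by the step that 1 tag makes in its library gave whole tags (within 0.01 of a tag) for 100% of values, so tags and library totals were recovered. Ratios were taken on tags over totals with exact (Clopper-Pearson) 95% intervals, tags under 3 being set to 3 and no ratio being given where both are at 3 or under. Changes of the side ratio have normal 95% intervals. A call is at least 2-fold, "near" is under 1.5-fold, and all genes have a mean of at least 5 CPM in the infarcted pair. Intervals and floors cover counting error only. Where sources name no separate animals, the limma p-values measure only the spread between these libraries.

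Positions come from the GENCODE annotation of GRCm38 for 22335 of the 22377 genes, and 1133 genes in 541 sets share their tags with a neighbour (within 5% and 5 kb). limma 3.58.1 (R 4.3.3) tested time over both infarcted pairs on log2(CPM + 1) with LEV as a factor; edgeR 4.0.16 on the recovered tags was an alternative. Ratios and figures used Python 3.11.15, pandas 2.3.3, numpy 2.4.6, scipy 1.17.1 and matplotlib 3.10.9, and both steps were tested on simulated data. Promoters are from RefSeq. Named genes were the 15 lowest and 15 highest ratios on the infarcted side, the 6 lowest and 6 highest changes of the side ratio, the 6 most changed in each direction on both sides, the 10 highest at 1 m of those that kept their excess, the 8 highest at 1 m of those under 1.5-fold at 7 d and in excess at 1 m, up to 4 of each list by size of ratio, and a panel of 20 genes; other genes of the lists were named after their values were seen. The genes, lists and comparisons were chosen with earlier results of these data known. Alternatives were scaling, expression limit, shared tags, CPM + 1, counting interval and fold; scalings of the pair with LEV were added after the data were seen.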

Additional observations from a re-analysis of the deposited data

Results flagged for a closer look

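7 genes moved in opposite directions between 7 d and 1 m in the infarcted pairs without and with LEV, each by at least 2-fold; with 1 library per group the difference was not tested. The log2 ratio of 1 m over 7 d was 2.00 without and -1.11 with LEV for Cd74, and 1.43 and -1.36 for H2-Ab1, both of MHC class II. For the chemokine Ccl8 it was 1.53 and -1.63, and for Cd5l of macrophages 1.61 and -4.20. The stromelysin Mmp3 had 1.77 and -4.28, the pump subunit Atp6v0d2 1.35 and -1.59, and the Wnt antagonist Sfrp4 1.17 and -2.48. The summed T cell markers moved with them, at 4.10 and 14 CPM without LEV and 8.58 and 3.80 CPM with it, and their part in the difference was not tested.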

How the results depend on the processing

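The direction of every named gene on the infarcted side was the same with median centring and with TMM factors (416 of 416 values). These scalings barely shift that pair, with a median log2 ratio of 0.0083 and TMM factors of 0.998 and 1.006. Directions of genes with large ratios could therefore hardly change, and this count is no check on them. Of 156 list medians, 153 moved by less than the limit for a change. The ratio of CPM + 1 moved the medians of macrophages to -1.59, interferon response to -1.33 and chemokines to -0.73. Counts followed the limits. With a mean CPM of at least 1, the infarcted side had 210 higher and 694 lower, the non-infarcted side 522 and 383, the side ratio 277 and 635, and genes in excess at 7 d were near the other side in 415, in excess at both times in 558, and under 1.5-fold at 7 d but in excess at 1 m in 121. With at least 20 CPM these were 15 and 171, 213 and 49, 7 and 163, and 63, 118 and 1. With the counting interval wholly past the fold they were 17 and 214, 203 and 27, 8 and 171, and 41, 167 and 1. At 4-fold they were 6 and 50, 16 and 11, 4 and 35, and 18, 77 and 0. Median centring, which shifts the non-infarcted side by 0.11 and the side ratio by 0.10, gave 76 lower on the non-infarcted side, 18 higher side ratios and 5 genes in excess at 1 m after under 1.5-fold at 7 d. TMM factors gave 18 higher side ratios, and 1595 genes for time over both pairs in place of 2445; edgeR gave 2354. CPM + 1 gave 65 lower on the non-infarcted side and 14 higher side ratios. Beyond the construction of each limit, the cause was not tested. No paired analysis was possible because each group has 1 library, and no library could be left out. Low genes are limited by depth: 3 tags are 0.167 to 0.218 CPM.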
